A study of Drosophila melanogaster with 3 samples.

Results

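The genes described here encode the Polycomb repressor complexes and the Trithorax, Brahma and related activator complexes of *Drosophila melanogaster*. They are a list of 32 named genes out of 13945 protein-coding genes on the main chromosome arms, made up of 17 repressor and 15 activator genes. The list goes by what the genes are known to encode and its rule uses no measured value, although earlier results of these data were known when it was made. The measurement was the genomic occupancy of zf30C, a zinc finger protein, by chromatin immunoprecipitation with sequencing (ChIP-seq), and the members were examined as genes that zf30C may occupy. The material was whole embryos 0 to 24 h old, with males and females pooled, of a transgenic line that stably expresses zf30C fused to GFP at its C-terminal end. The 3 libraries are biological replicates of that 1 group, and no other genotype, age or treatment was compared. Chromatin was sonicated to 200 to 800 bp. The labels name zf30C as the antibody target, but their free text calls the same libraries input controls. They are read here as immunoprecipitates, because the notes deposited with them pair each library with another alignment as control. A whole embryo mixes many cell types, so strong occupancy in few cells and weak occupancy in many cannot be told apart.

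Polycomb group proteins keep developmental genes, the homeotic genes above all, silent in cells where they were silent early in development. The Polycomb repressive complexes PRC1 and PRC2 modify histone tails and compact chromatin, PhoRC brings a sequence-specific DNA-binding protein to Polycomb response elements, and PR-DUB removes ubiquitin from histone H2A. Trithorax group proteins oppose this silencing. They include enzymes that write or erase histone methylation, the ATP-driven Brahma nucleosome remodeller, and the kinase module of the Mediator complex.

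The data are lists of summits, each the highest point of an enriched region, with a signal value that the authors deposited without stating its unit. The list that passed the authors' test of reproducibility (irreproducible discovery rate, IDR) holds 3567 summits, which are the 3567 highest of a pooled list of 30000. Each replicate has its own list of 30000. Signal scales differ between lists, so replicates are compared by rank, where rank 1 is the highest signal, and by list position, which is the rank as a percent of the list. A summit within 500 bp of any annotated start of a gene is called a promoter summit. All positions are on genome build dm6 (Release 6), counted from 1.

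The sequences below come from the RefSeq Release 6 genome, read 5′ to 3′ on the strand of the gene, and are centred on the summit, except at Pc, where the window ends at the annotated gene. They are shown because they include the strongest site in any member gene, the second site of the same gene, and promoter sites of an activator ATPase, a Mediator subunit and the gene that names the Polycomb group. None overlaps an annotated exon. Capitals mark GAGAG or its reverse complement CTCTC, the core recognised by GAGA factor, a protein that binds many Polycomb response elements.
trx, strongest intronic summit, chr3R:14278016-14278166, minus strand: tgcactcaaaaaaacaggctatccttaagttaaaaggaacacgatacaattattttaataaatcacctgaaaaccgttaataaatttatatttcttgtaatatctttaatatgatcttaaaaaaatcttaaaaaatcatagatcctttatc
trx, second intronic summit, chr3R:14283845-14283995, minus strand: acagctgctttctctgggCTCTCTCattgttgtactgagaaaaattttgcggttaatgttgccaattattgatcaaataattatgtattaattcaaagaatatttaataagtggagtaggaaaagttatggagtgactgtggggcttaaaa
brm, promoter summit, chr3L:15982936-15983086, minus strand: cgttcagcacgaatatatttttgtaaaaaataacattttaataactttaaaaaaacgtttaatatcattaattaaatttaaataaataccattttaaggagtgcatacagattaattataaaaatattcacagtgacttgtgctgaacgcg
skd, promoter summit, chr3L:21026474-21026624, minus strand: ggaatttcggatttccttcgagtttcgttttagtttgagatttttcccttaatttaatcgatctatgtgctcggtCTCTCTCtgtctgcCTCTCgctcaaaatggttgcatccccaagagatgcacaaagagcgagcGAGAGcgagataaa
Pc, promoter summit, chr3L:21318021-21318156, minus strand: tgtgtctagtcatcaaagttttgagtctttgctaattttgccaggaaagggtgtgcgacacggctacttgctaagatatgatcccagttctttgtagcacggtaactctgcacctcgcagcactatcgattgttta
The skd window held 4 matches, of which the first 2 overlap each other. The second trx window held 2 overlapping matches, and the strongest trx window, the brm window and the Pc window held 0.

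zf30C summits were found at some member genes and not at most. An IDR-list promoter summit was present at 9 of the 32 members, 28.1%, beside 9.65% of all protein-coding genes. With summits anywhere in the gene counted as well, 11 members had one, 34.4% beside 13.6% of all protein-coding genes. The 9 with a promoter summit were Pc, ph-p, Psc, Su(z)2 and E(z) among the repressors and Utx, brm, kis and skd among the activators. The remaining pair, trx and osa, carried summits inside the gene only. Of the 21 members outside the IDR list, 14 had a lower-ranked summit in the pooled list and 7 had none: Sce, escl, pho, Sfmbt, calypso, polybromo and kto.

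Among members that had any pooled promoter summit, 37.5% had one in the IDR list, beside 21.9% of all protein-coding genes with a pooled promoter summit. A pooled promoter summit itself was present at 24 members, 75% of them, beside 44.1% of all protein-coding genes. The list was chosen with earlier results of these data known, so no test is attached to any of these shares.

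How repressor and activator genes compared depended on which activators were counted. In the IDR list, 5 of 17 repressors (29.4%) and 4 of all 15 activators (26.7%) had a promoter summit. Of the 12 member genes for Trithorax modifiers and the Brahma complex alone, without kis, kto and skd, 2 had one (16.7%), Utx and brm. Bap170, a Brahma complex gene outside the members, had 2 IDR-list promoter summits and is not counted among these 12. With summits anywhere in the gene counted, these 12 genes stood at 33.3%, above the 29.4% of the repressors, since trx and osa then count. With a window of 200 bp around starts the counts for repressors and all activators were 5 and 2, because the skd and kis summits lie farther out. Counting only summits among the 3567 highest of both other replicates, the repressors fell to 3 without replicate 1, Pc and E(z) being lost. Among the 3567 highest summits of each replicate, 29.4%, 29.4% and 23.5% of repressors had a promoter summit in replicates 1, 2 and 3. For all 15 activators the shares were 20%, 33.3% and 26.7%, and for the 12 Trithorax and Brahma genes 16.7%, 25% and 16.7%. All protein-coding genes had 9.31%, 9.21% and 10.8%, below each of these in every replicate.

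The mean share was 27.5 ± 3.4% for repressors, 26.7 ± 6.67% for all activators and 19.4 ± 4.81% for the Trithorax and Brahma genes (SD, n = 3). The difference, repressors minus all activators, was 9.41 points in replicate 1, -3.92 in replicate 2 and -3.14 in replicate 3, with a mean of 0.784 ± 7.48 points. It was thus far smaller than its spread over replicates, and its sign was not the same in all of them. Against the Trithorax and Brahma genes alone the difference was 12.7, 4.41 and 6.86 points, a mean of 8.01 ± 4.28. Repressors were higher in 3 of 3 replicates. These differences rest on few genes: in replicate 2 the counts were 5 of 17 repressors and 3 of 12 Trithorax and Brahma genes. Each SD is over 3 rankings of the same genes and does not measure variation between genes. With 3 replicates a two-sided exact sign-flip permutation test cannot go below p = 0.25, so no p is given. The mean difference from all activators turned to -3.53 points without replicate 1.

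The shares of repressors and of all 15 activators were followed along the replicate lists. Among the 500 highest summits, Utx was the only member with a promoter summit in each replicate, so activators stood at 6.67% and repressors at 0%. Among the 1000 highest the order was the other way, with 13.7 ± 3.4% of repressors and 6.67% of activators. From 3567 summits on, the means of both sides lay within 1 SD of each other, and at 2 times as many they were 45.1 ± 8.99% and 46.7 ± 6.67%. All protein-coding genes stood at 2.73 ± 0.183% at 1000 summits and 19.1 ± 1.08% at 2 times 3567. Repressors were above them at each depth plotted except 500, and activators at every one.

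**Figure D1:**
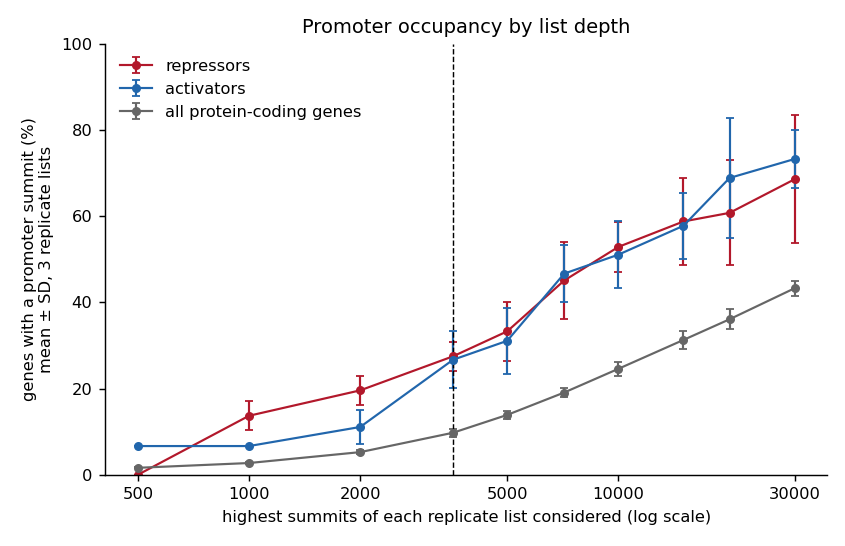
Share of genes with a promoter summit (%, y axis) against the number of highest summits considered in each replicate list (x axis, log scale). Points are means and bars SD over 3 replicate lists; the dashed line marks 3567 summits, where repressors stood at 27.5%, activators at 26.7% and all protein-coding genes at 9.76%.

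The repressor summits lay mostly within 500 bp of a start of the gene itself, and the activator summits mostly farther from one. The repressors held 10 IDR-list summits, 9 of them at a promoter of the gene itself, including 4 at ph-p. The activators held 12, of which 4 were at a promoter of the gene itself. A promoter summit can also lie inside the annotated gene, and on both sides most IDR-list summits lay inside it. Counting only summits inside the annotated gene, there were 0.804 per 10 kb of repressor gene and 0.592 per 10 kb of activator gene, beside 0.239 for all protein-coding genes. In the pooled list the order was reversed, with 3.31 summits per 10 kb of repressor gene and 4.3 per 10 kb of activator gene, beside 2.15 overall. These differences were not tested. The repressor genes with an IDR-list summit were 3.56 to 15 kb long. Of the activator genes with one, Utx and brm were 6.49 and 12.8 kb long. The others, trx, osa, skd and kis, were 23.5, 30.5, 34.6 and 40.1 kb long, with 1 or 2 annotated starts each. Side and gene length therefore cannot be told apart in the distances from a start.

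**Figure D2:**
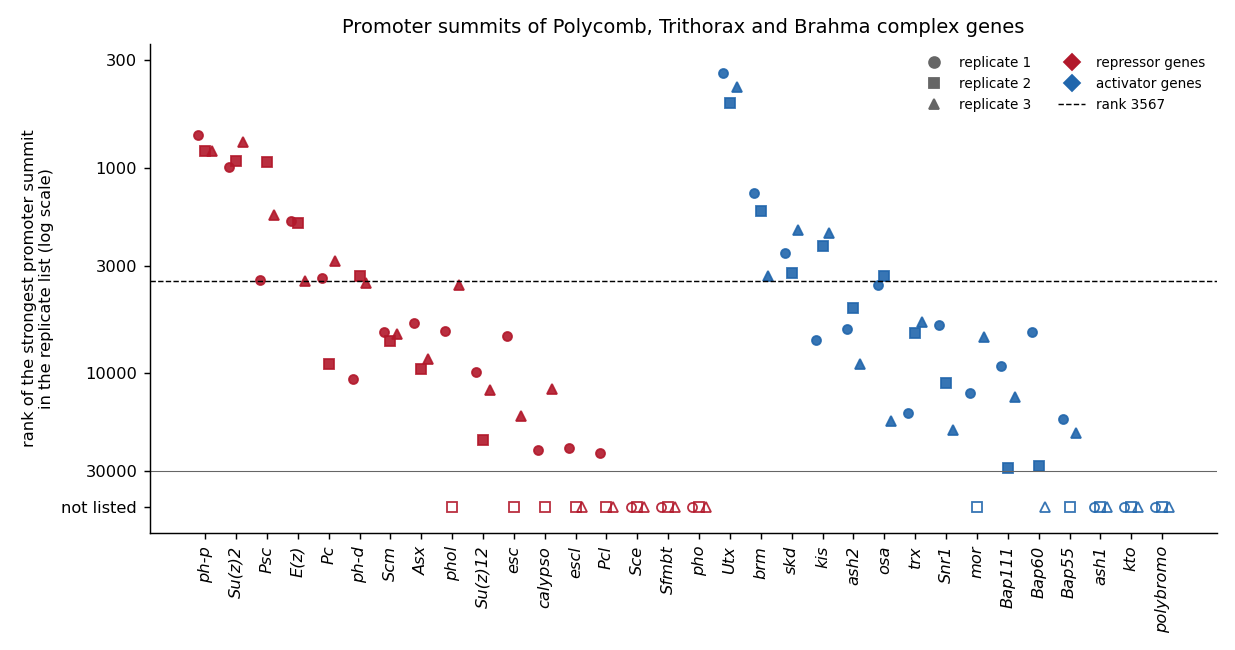
Rank of the strongest promoter summit of every member in each replicate list (y axis, log scale, strongest at the top), with repressors in red and activators in blue. Open symbols mark a replicate list with no promoter summit and the dashed line is rank 3567; Utx has the highest ranks (345, 483 and 403), and 6 members stand above the line in all 3 replicates.

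PRC1 subunits read methylated histone H3, ubiquitinate histone H2A and compact nucleosomes. Of the 7 PRC1 genes, 4 had IDR-list promoter summits, the most among the repressor complexes. This was 57.1%, beside 9.65% of all protein-coding genes. The 4 genes, Pc, ph-p, Psc and Su(z)2, are also the only repressor genes of 10 kb or longer. Complex and gene length therefore cannot be told apart here. The strongest PRC1 promoter summit lay at ph-p (FBgn0004861, X, 2136322 to 2136734). This gene is the proximal copy of polyhomeotic, a subunit with a SAM domain through which it forms polymers. Its pooled signal was 667, its summit stood 85 bp downstream of an internal start, and its ranks were 695, 829 and 828. The close ranks put it at a list position of 2.61 ± 0.257% (SD, n = 3). The 3 further IDR-list promoter summits of ph-p had signals of 318, 244 and 222. Their ranks varied more: the one with signal 222, 460 bp upstream of an internal start, had ranks 7954, 3151 and 1506. The one with signal 244 overlaps the strongest region, so in replicates 1 and 2 it has the same ranks as that summit.

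ph-d, the distal copy next to ph-p, encodes a closely related protein and had no IDR-list summit under the 500 bp rule. Its strongest promoter summit had pooled rank 7815 and ranks 10648, 3384 and 3657, so 1 replicate placed it among its 3567 highest and another fell just short. Both genes arose by duplication and share sequence. Of the 30-base words in the windows around the 3 ph-d summits, 4.07%, 41.3% and 0% occurred elsewhere on the main chromosome arms. At each of the 22 IDR-list summits of members it was 0%. Where the other copies lie was not examined. Whether the repeated stretches bear on the ranks of ph-d was not tested.

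Psc (FBgn0005624) and its neighbour Su(z)2 (FBgn0265623) encode related subunits that compact chromatin. Su(z)2 had a summit 29 bp downstream of a start (2R, 12996372 to 12996661) with signal 589 and ranks 992, 924 and 754, a list position of 2.97 ± 0.409%. A second Su(z)2 promoter summit, 43 bp downstream of another start, was weaker, with signal 196 and ranks 5641, 4732 and 2567. Psc had a promoter summit 38 bp downstream of a start (2R, 12980736 to 12981175) with signal 326. Its ranks of 3534, 942 and 1696 all fell within the 3567 highest, but replicate 1 placed it close to that limit, at a mean position of 6.86 ± 4.44% (4.4% without it). A summit in a Psc intron, 5012 bp downstream, had signal 290 and ranks 2150, 1508 and 4628.

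Pc (FBgn0003042) encodes the chromodomain subunit that binds trimethylated histone H3. Its single summit, 61 bp upstream of the start (3L, 21317861 to 21318300), was among the weakest in the IDR list at signal 199 and pooled rank 3412. It ranked 3425 in replicate 1, 9014 in replicate 2 and 2849 in replicate 3, so replicate 2 did not place it among its highest regions. The mean position was 17 ± 11.4% (SD, n = 3), and 10.5% without replicate 2. Of the other PRC1 genes, Scm, which encodes another SAM-domain protein, had a promoter summit below the list at pooled rank 5898 with even ranks of 6316, 6947 and 6454. Sce, the gene of the ubiquitin ligase of PRC1, had no pooled summit and no promoter summit in any replicate list.

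PRC2 methylates histone H3. Of its 5 member genes, 1 had an IDR-list summit (20%, beside 13.6% of all protein-coding genes). It was E(z) (FBgn0000629), which encodes the methyltransferase itself. The summit lay 103 bp upstream of an internal start (3L, 10637762 to 10638201) with signal 314, inside the annotated gene. A start of the gene Cnep1r2 is within 500 bp of it as well. Its ranks were 1822, 1857 and 3580, a position of 8.07 ± 3.35%, with replicate 3 just outside its 3567 highest. When a replicate summit had to lie within 100 bp of the pooled one, the mean position moved to 37.4%. This came from replicate 3, which had no summit that near and was placed at the end of its list. The other PRC2 genes lay far down or were absent. Su(z)12, a zinc finger subunit, had its best promoter summit at pooled rank 12401 and esc, a WD-repeat subunit, at 8608. Pcl, an accessory subunit, had only a summit in the gene body in the pooled list, at rank 17348, and escl, the paralogue of esc, had no pooled summit. In replicate 1 alone each was listed with a promoter summit, Pcl at rank 24412 and escl at 23247.

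PhoRC and PR-DUB had no IDR-list summit at any of their 5 genes, beside 13.6% of all protein-coding genes. All 5 are under 10 kb, and of all protein-coding genes under 10 kb 9.1% had one. So few genes cannot be told apart from these shares. The DNA-binding gene pho and its partner Sfmbt had no summit in the pooled list and no promoter summit in any replicate list. phol, the paralogue of pho, had one at pooled rank 7015, with ranks 6245 in replicate 1 and 3707 in replicate 3 and no region in replicate 2. Asx, which encodes the cofactor of the deubiquitinase, had a promoter summit at pooled rank 7666. calypso, the gene of the deubiquitinase, had none in the pooled list but was listed in replicates 1 and 3 at ranks 23701 and 11968.

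The strongest member sites lay in trx (FBgn0003862), which encodes a histone H3 methyltransferase. All 3 of its IDR-list summits were in introns, and none was at its annotated start. The highest, 8812 bp downstream of the start (3R, 14277740 to 14278371), had signal 2123, pooled rank 134 and ranks 164, 140 and 107. It was the highest member summit in the pooled list, at a list position of 0.457 ± 0.0954%. The second, 2983 bp downstream (3R, 14283594 to 14284137), had signal 1439 and ranks 211, 418 and 357. The last, 6980 bp downstream, had signal 359.6 and ranks 1352, 1872 and 2048. Each was thus well within the 3567 highest of every replicate. The trx promoter had its best summit only at pooled rank 9126.

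Utx (FBgn0260749), which encodes a histone H3 demethylase that erases the mark made by PRC2, had the strongest promoter summit of any member. It lay 195 bp downstream of an internal start (2L, 10276408 to 10277258) with signal 1161 and ranks 345, 483 and 403, at a position of 1.37 ± 0.231%. A summit 40 bp upstream of the most upstream Utx start ranked only 9755 in the pooled list. The other Trithorax modifier genes had no IDR-list summit. ash2, a subunit shared by H3 methyltransferase complexes, had its best promoter summit at pooled rank 7309, and ash1, another methyltransferase gene, at 26542. The start nearest to that ash2 summit was that of puf, and a start of Taf6 lay within 500 bp of the ash1 summit.

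**Figure D3:**
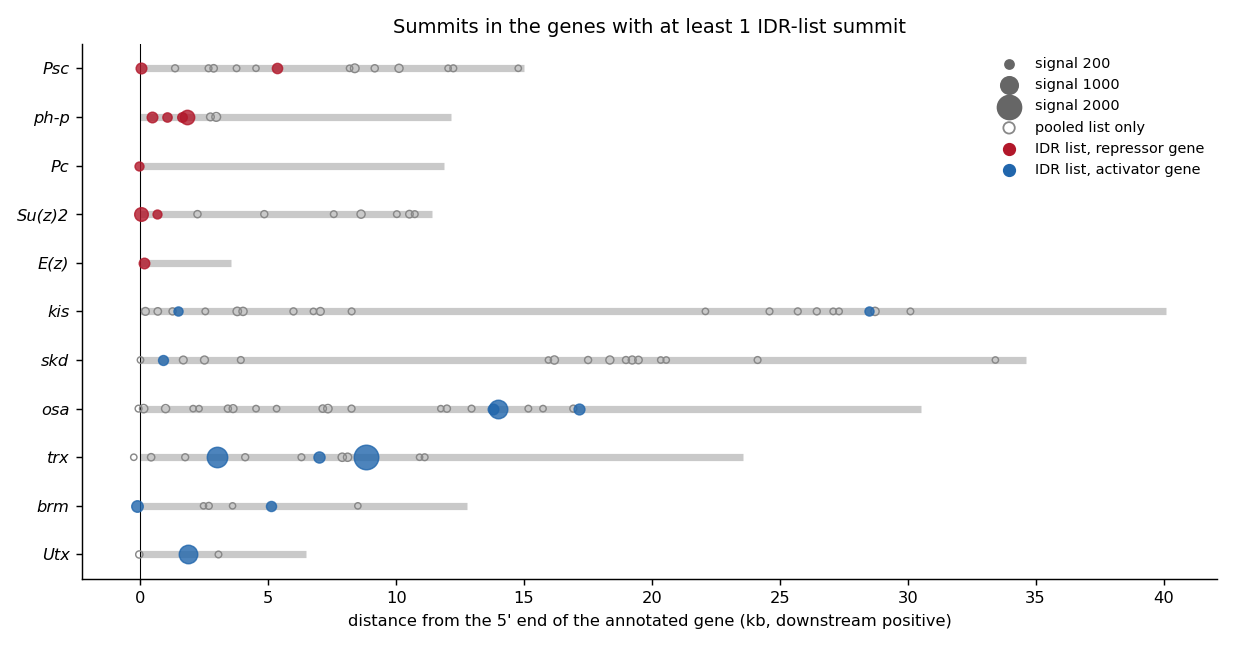
Positions of summits in the 11 member genes with an IDR-list summit, as distance from the 5′ end of the annotated gene (kb, x axis); grey bars are the genes, filled points IDR-list summits with area growing with pooled signal, and open points summits of the pooled list only. The largest points lie inside trx (signal 2123) and osa (1167) and at an internal start of Utx (1161), while repressor summits sit mostly near the left end of the gene.

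Of the 8 member genes of the Brahma complex, 2 had an IDR-list summit, brm and osa. This was 25%, beside 13.6% of all protein-coding genes. Bap170, a subunit gene outside the members, is given further below. brm (FBgn0000212), the gene of the remodelling ATPase, had a summit 142 bp upstream of a start (3L, 15982913 to 15983085) with signal 393 and ranks 1330, 1629 and 3363. This region lies between brm and the gene Arl1, and the start of Arl1 is the nearer one. A second brm summit, in an intron 5104 bp downstream, had signal 277 and ranks 2066, 2830 and 3224, and the start nearest to it was that of CG17029. Both were within the 3567 highest of all replicates, with replicate 3 close to the limit.

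osa (FBgn0261885) encodes the ARID-domain subunit that marks one form of the complex. Its strongest summit was 13985 bp inside the gene (3R, 17704166 to 17704642), in an exon of the non-coding gene lncRNA:CR46035, with signal 1167 and ranks 337, 564 and 394. A second summit of signal 318 lay in the same exon, and because its region overlaps the first, it has the same replicate ranks. Another, of signal 336, lay within 500 bp of the start of lncRNA:CR46036 and ranked 3125, 1521 and 1050. All 3 were thus near starts or exons of non-coding genes nested in osa. At the osa promoter itself the best summit had pooled rank 4823, with ranks 3709, 3364 and 17029.

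The remaining Brahma subunit genes among the members had no IDR-list summit. Bap60 came nearest, with a promoter summit at pooled rank 6929 and ranks of 6281 and 28176 in replicates 1 and 2 and no region in replicate 3. Bap111, an HMG-box subunit gene, followed at 9878, Snr1 at 11576, the scaffold gene mor at 12842 and Bap55, which encodes an actin-related protein, at 16701. Each of these promoter summits also lay within 500 bp of a start of another gene. That other start was the nearer one at Bap60 (CG12096), Bap111 (fh), mor (Hel89B) and Bap55 (Lhr). A stronger mor summit, at pooled rank 8964, lay 505 bp downstream of its start and so just outside the promoter window. polybromo, which marks the other form of the complex, had no pooled summit and no promoter summit in any replicate list.

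Of the remaining activators, skd and kis had promoter summits and kto had none. skd (FBgn0003415) and kto encode Med13 and Med12, the large subunits of the Mediator kinase module. The skd summit was 345 bp upstream of an internal start (3L, 21026329 to 21026768), with signal 265. Its ranks were 2592, 3238 and 2006, all within the highest regions, at 8.71 ± 2.05% (SD, n = 3). kto had no pooled summit and no promoter summit in any replicate list. kis (FBgn0266557), which encodes a chromodomain remodeller, had a summit 392 bp upstream of an internal start (2L, 222134 to 222573) with signal 208 and ranks 6892, 2411 and 2089. Another kis summit of signal 210.1 ranked 5418, 2664 and 2083 and lay at the start of the non-coding gene lncRNA:CR44218. Replicate 1 placed neither among its 3567 highest.

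Over all 22 IDR-list summits of members, 15 (68.2%) were within 500 bp of a start of some gene, beside 39.5% of the whole list. Introns held 5 (22.7% beside 36.5%) and non-coding exons the other 2, both in osa. Coding exons and UTRs held 0. A promoter share is raised by the way summits were assigned, since members' summits had to lie in or near a gene and 20% of the whole list is intergenic. The nearest start belonged to another gene for 6 of the 22. Their median pooled rank was 1872.5 beside 1784 for the list, and 13 (59.1%) were among the 3567 highest of all 3 replicates, beside 65.3% of the list. In strength and replicate support the members' summits therefore stood close to the list as a whole.

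Windows reaching 100 bp to either side of the 22 summits were searched on both strands for 4 motifs. GAGAG (reverse complement CTCTC) was in 8, or 36.4%, beside 34.5% of all IDR-list windows, and these lay in Psc, Su(z)2, kis, osa, skd and trx. GCCAT (reverse complement ATGGC), the core bound by Pho, was in 4, or 18.2% beside 24.2%, in E(z), Utx and osa. CGATA (reverse complement TATCG), a core bound by the insulator protein BEAF-32, was in 4 as well, 18.2% beside 24.8%. TATCGATA, the DNA replication-related element, which contains CGATA, was in 0, beside 1.88%. In windows reaching only 50 bp to either side GAGAG was in 2, 9.09% beside 18.8%. GCCAT and CGATA were then in 3 each, 13.6% beside 13.3% and 13.5% of the list. No order between members and list thus held for GCCAT and CGATA at both window sizes, and none of these shares was tested. GC content ran from 22.4% at E(z) to 58.7% at the Psc promoter, with a median of 41.8% beside 37.8% for the list.

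Gene length went with occupancy. The median member was 5.89 kb long and the median protein-coding gene 2.17 kb. All 9 members of 10 kb or longer, namely Pc, ph-p, Psc, Su(z)2, trx, brm, osa, kis and skd, had an IDR-list summit in the gene or at a start, beside 41.2% of all protein-coding genes of that length. Among members under 10 kb it was 2 of 23, 8.7% beside 9.1%, and these were E(z) and Utx. By this IDR-list share the short members, 23 of the 32 genes, were thus at the level of other short genes. Summits below the IDR list were not split by gene length. For promoter summits alone the share of the long members was 77.8% beside 21.8%. Per 10 kb of gene, long members had 0.937 summits inside the gene beside 0.252, and short members 0.189 beside 0.211. The 10 kb division was chosen after the data were examined. Both sides show it, with a summit at 4 of 4 long repressors and 5 of 5 long activators.

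**Figure D4:**
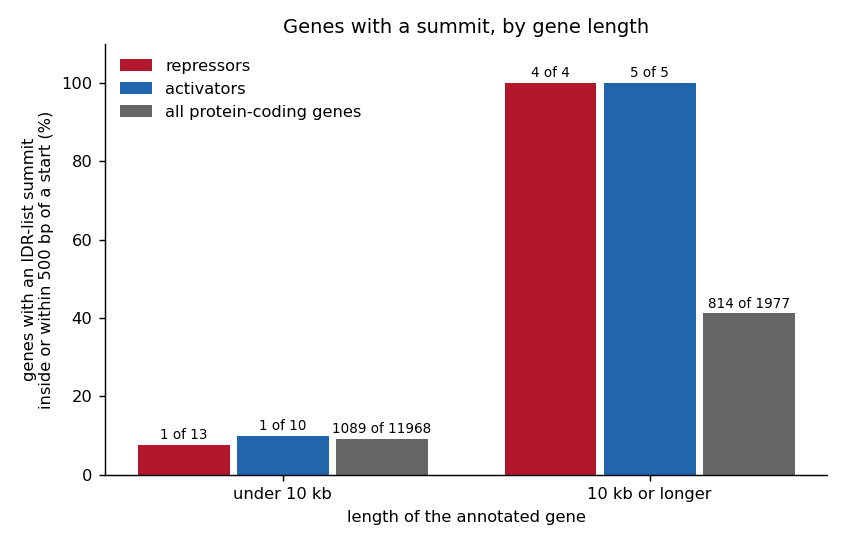
Share of genes with an IDR-list summit inside the gene or within 500 bp of a start (%, y axis) for genes under 10 kb and of 10 kb or longer, with the counts above each bar. All 9 long members had one beside 41.2% of long genes in general, and 2 of 23 short members beside 9.1%.

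Other genes of the same pathways were counted in the same way. Of 18 genes for other Polycomb-related repressors and recruiters, 6 (33.3%) had an IDR-list promoter summit, beside 29.4% of the member repressors and 9.65% of all protein-coding genes. The highest were those of lolal, a BTB-domain partner of GAGA factor, at pooled rank 430 with ranks 488, 378 and 386, and of the transcription factor gene grh at pooled rank 431. Kdm2 followed at 1930 and Trl, the gene of GAGA factor, at 2098. Of 27 genes for other activators and remodellers, 7 (25.9%) had one, beside 26.7% of the 15 member activators. With summits anywhere in the gene the share was still 25.9%, beside 40% of the member activators. A pooled promoter summit was present at 51.9% of these genes, beside 86.7%, and 13 of the 27 had no pooled summit at all, beside 2 of 15. The highest promoter summits were led by nej, the histone acetyltransferase CBP, at pooled rank 854 with ranks 721, 1006 and 724. Bap170, a subunit of the polybromo form of the Brahma complex, followed at 1165, lid, a histone demethylase, at 1218 and Mi-2, a remodelling ATPase, at 1317.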

How the data were processed

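Region lists from ChIP-seq of 3 replicates of 1 group were used as the authors deposited them. Per the deposited notes, each replicate list came from that replicate and 1 shared control, and the pooled and IDR lists from all 3, so agreement between lists is no independent support. The deposited signal values have no stated unit or normalization, so ranks were used. Not given in the sources used here are aligner, peak caller, tool versions and the cut-off of the IDR step. The lists hold no read counts, so depth is unknown and no interval is given. The control was not analysed here.

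Genes came from Ensembl release 115 (BDGP6.54) and sequences from RefSeq Release 6, and 0 coordinates lay beyond the end of an arm. Symbols matched 31 members, and a RefSeq synonym matched calypso (caly), as one did lid (Kdm5). Every member is named, as are the 4 genes with the highest pooled promoter summit in each list of other genes. Members, lists and motifs were chosen with earlier results of these data known, and the 10 kb division and the shorter motif windows after the data were examined. A replicate's rank at a pooled summit is that of its highest summit in a region overlapping the pooled region by at least 1 bp, and in the plot of ranks that of its own strongest promoter summit. A gene absent from a replicate list was placed at its end. Shares are given as mean and SD over replicates. Alternatives were other windows, list depths, gene assignments and leaving out each replicate. Scripts were tested on simulated data (Python 3.11.15, NumPy 2.4.6, matplotlib 3.10.9).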

Additional observations from a re-analysis of the deposited data

How the results depend on the processing

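No paired analysis was possible because there is only 1 group. The 5 repressors with a promoter summit became 2 in the highest 1783 of the IDR list and 3 when the summit had to be among the 3567 highest of every replicate, and 3 to 4 on leaving out each replicate (3 without replicate 1). The 4 activators became 2 with a 200 bp promoter window, 2 in those 1783, and 3 to 4 on leaving out each replicate. The 11 members with any summit became 6 in those 1783 and 9 on leaving out any replicate. The mean difference of 0.784 points between repressor and activator shares became 8.01 with kis, kto and skd left out, 11.9 with the 200 bp window, 4.71 with 1000 bp, 4.58 with 0.5 times as many summits, 3.01 with the nearest start only and -1.57 with 2 times as many summits, and ran from -3.53 to 3.14 on leaving out each replicate. The median list position of the 11 members' strongest summits, 6.86%, ran from 4.4% to 7.66%. The GAGAG share of 36.4% became 9.09% in windows reaching 50 bp to either side and 37.5% to 50% on leaving out each replicate; those of GCCAT ran from 18.8% to 25%, of CGATA from 12.5% to 21.4%, and of TATCGATA it stayed at 0%. The causes of these changes were not tested, beyond fewer summits being counted in the shorter lists. With a summit within 100 bp required, the position of skd moved from 8.71% to 11.3%. With a 1000 bp window ph-d also had an IDR-list summit, and with 2 times as many pooled summits Scm, phol, osa and Bap60 had promoter summits. Depth is unknown, so an absent summit is one not detected in these lists and not an absent site.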
